A study of Homo sapiens with 8 samples.

Results

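The glycolysis and hypoxia-response genes of A375 cells were 40 genes chosen by name, of which 37 had a probe set annotated to a single gene symbol, out of 19775 genes with such a probe set on the array. They fell into 5 roles. These were 6 HIF subunits and oxygen sensors, 9 genes known to be induced by hypoxia, 13 genes of glucose uptake and upper glycolysis, 6 genes of lower glycolysis, and 6 genes of lactate and pyruvate fate. CA9, a carbonic anhydrase at the cell surface, and SLC16A1 and SLC16A3, which carry lactate across the membrane, had no single-symbol probe set in the annotation used and were not analysed here.

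A375 is an established human melanoma line. The study asked which transcripts respond to an HSP90 inhibitor and need the heat shock transcription factor HSF1 for it, and measured mRNA on 8 HG-U133 Plus2 arrays, 2 for each of 4 groups. The shHSF1 cells carried a Doxycycline-inducible hairpin against HSF1 and the shNTC cells a non-targeting hairpin. The 4 groups are called knockdown cells (shHSF1 with both Doxycycline and NVP-HSP990), inhibitor-only cells (shHSF1 with NVP-HSP990, no Doxycycline), Dox control cells (shNTC with both Doxycycline and DMSO) and DMSO control cells (shNTC with DMSO, no Doxycycline). The knockdown comparison sets knockdown cells against inhibitor-only cells, and the NVP-HSP990 comparison sets inhibitor-only cells against DMSO control cells. NVP-HSP990, an HSP90 inhibitor, was given at 100 nM and DMSO at 0.1%, both for 3 hours, after 3 days of culture with or without Doxycycline at 100 ng/mL. The sources differ here. The sample titles name each array as Dox or ctrl and were followed, while the protocol in the labels has Doxycycline in all lines. All groups came from lentivirally infected, puromycin-selected cells, the knockdown rested on 1 hairpin, and none of the shNTC arrays analysed here came from cells given the inhibitor, so that the effect of the inhibitor cannot be told apart from a difference between the lines. Nothing in the labels tells if 2 arrays of 1 group had a culture each. The p-values therefore rest on differences between arrays that may only be technical.

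In normal oxygen, the prolyl hydroxylases EGLN1 and EGLN3 mark the alpha subunits HIF1A and EPAS1 for ubiquitination by the VHL complex. When oxygen is short the alpha subunits persist, pair with ARNT and switch on genes whose promoters or enhancers hold a hypoxia response element, among them glucose transporters, most glycolytic enzymes and the kinases that keep pyruvate out of the mitochondrion. HIF1A protein is a client of HSP90, and HSF1 has been linked to glycolysis in cancer cells. The arrays measured mRNA, so they hold no information on the amount of HIF1A protein. In RNA from a whole culture, a smaller share of cells and less RNA per cell cannot be told apart.

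HSF1 mRNA was lower in knockdown cells, and a control list of heat shock genes changed in both comparisons. HSF1 mRNA had signals of 5.5 and 7.3 in knockdown cells, against 99.0 and 42.5 in inhibitor-only cells (log2 change -1.87, SE 0.29, adjusted p = 0.00754 from limma). All 10 heat shock genes used as a control list rose with NVP-HSP990 (0.197% of all genes tested) and all 10 fell with the knockdown (1.85%). The paper names BAG3, DEDD2, HSPA1L, HSPA6 and HSPB1 among genes of its arrays with this pattern, so the count is not an independent check. Of 9 melanocyte lineage markers with a probe set, SOX10, MITF, S100B, CSPG4 and EDNRB were at or above the array median in every array, while the pigment genes MLANA, PMEL, TYR and TYRP1 were below it in every array. The second array of Dox control cells stood apart in RNA quality. The ratio of its 3-prime to its 5-prime ACTB signal was 46.8, against 4.73 to 18.9 in the other 7 arrays, and that of the GAPDH control probe sets was 3.13, against 1.34 to 2.73. Of the 37 genes, 11 had their highest signal of all 8 arrays in it (29.7%, against 15.2% of the 12672 genes tested).

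The promoters of the 3 genes that passed a test in any comparison below are given first. Each holds the core of the hypoxia response element (ACGTG or GCGTG, on either strand, in capitals), as do most of the other matched genes. They are the 250 bases before the RefSeq start on GRCh38.p14, all on the plus strand, at chr11:10304823-10305072 for ADM, chr4:185396591-185396840 for ANKRD37 and chr12:6914330-6914579 for ENO2.
ADM: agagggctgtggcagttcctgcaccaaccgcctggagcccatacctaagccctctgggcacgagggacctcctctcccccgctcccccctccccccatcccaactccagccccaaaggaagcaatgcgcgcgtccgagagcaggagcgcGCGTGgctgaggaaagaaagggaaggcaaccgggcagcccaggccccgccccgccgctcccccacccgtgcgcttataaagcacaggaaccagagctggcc
ANKRD37: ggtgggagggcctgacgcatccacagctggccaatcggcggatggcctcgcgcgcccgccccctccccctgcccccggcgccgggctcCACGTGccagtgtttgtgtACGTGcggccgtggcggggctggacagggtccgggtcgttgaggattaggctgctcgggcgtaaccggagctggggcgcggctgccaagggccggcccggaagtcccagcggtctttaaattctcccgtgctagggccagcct
ENO2: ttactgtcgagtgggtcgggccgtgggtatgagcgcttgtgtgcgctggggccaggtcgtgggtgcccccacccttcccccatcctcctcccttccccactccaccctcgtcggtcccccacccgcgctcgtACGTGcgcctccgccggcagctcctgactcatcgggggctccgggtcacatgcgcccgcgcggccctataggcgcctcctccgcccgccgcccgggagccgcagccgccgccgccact
ADM and ENO2 each held 1 match, and ANKRD37 held 3, of which 2 overlap in the palindrome CACGTG. Over the whole 300-base windows of the RefSeq table (250 bases before to 50 after the start), 42 of the 62 windows of 34 matched genes held the core (67.7%), against 48.4% of all 35116 windows. All 7 windows of the 6 matched hypoxia-induced genes held it. By gene, 31 of the 34 held it in 1 or more windows, against 14318 of all 27305 genes. The core therefore does not set the 3 genes apart from the other matched genes. The heat shock element of 2 facing units (GAANNTTC or TTCNNGAA, both strands, which can share an end base with a core) was in 1 of the 62 windows, that of PGK1 (1.61%), against 13.5% of all windows. The heat shock element of 3 alternating units was in 0 of the 62 windows, against 0.49% of all windows. A match is a description of these letters and not a site of binding.

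Across the 37 genes, the knockdown left the great majority short of the threshold. All 37 passed the filter on low signals, and with the knockdown in cells given NVP-HSP990, 1 rose (ADM) and 1 fell (ANKRD37), where 0.994% of all genes tested rose and 1.85% fell. At an unadjusted p under 0.05 there were 4 (ADM, ANKRD37, ENO2 and SLC2A3), or 10.8% of the 37, against 15.3% of all genes. The median log2 change was -0.0011 over the 37 and 0.0015 over all genes, and the median size of the change was 0.12 over the 37 and 0.19 over all genes. For 31 of the 37 the 95% interval of the change lay inside 1 log2 unit in either direction, which is a 2-fold change, against 86.4% of all genes. The 6 others were ADM, ANKRD37, PDK1, PDK3, SLC2A3 and VEGFA. A value short of the threshold does not show that a gene was unchanged, and the intervals give the size that these arrays leave possible.

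**Figure D1:**
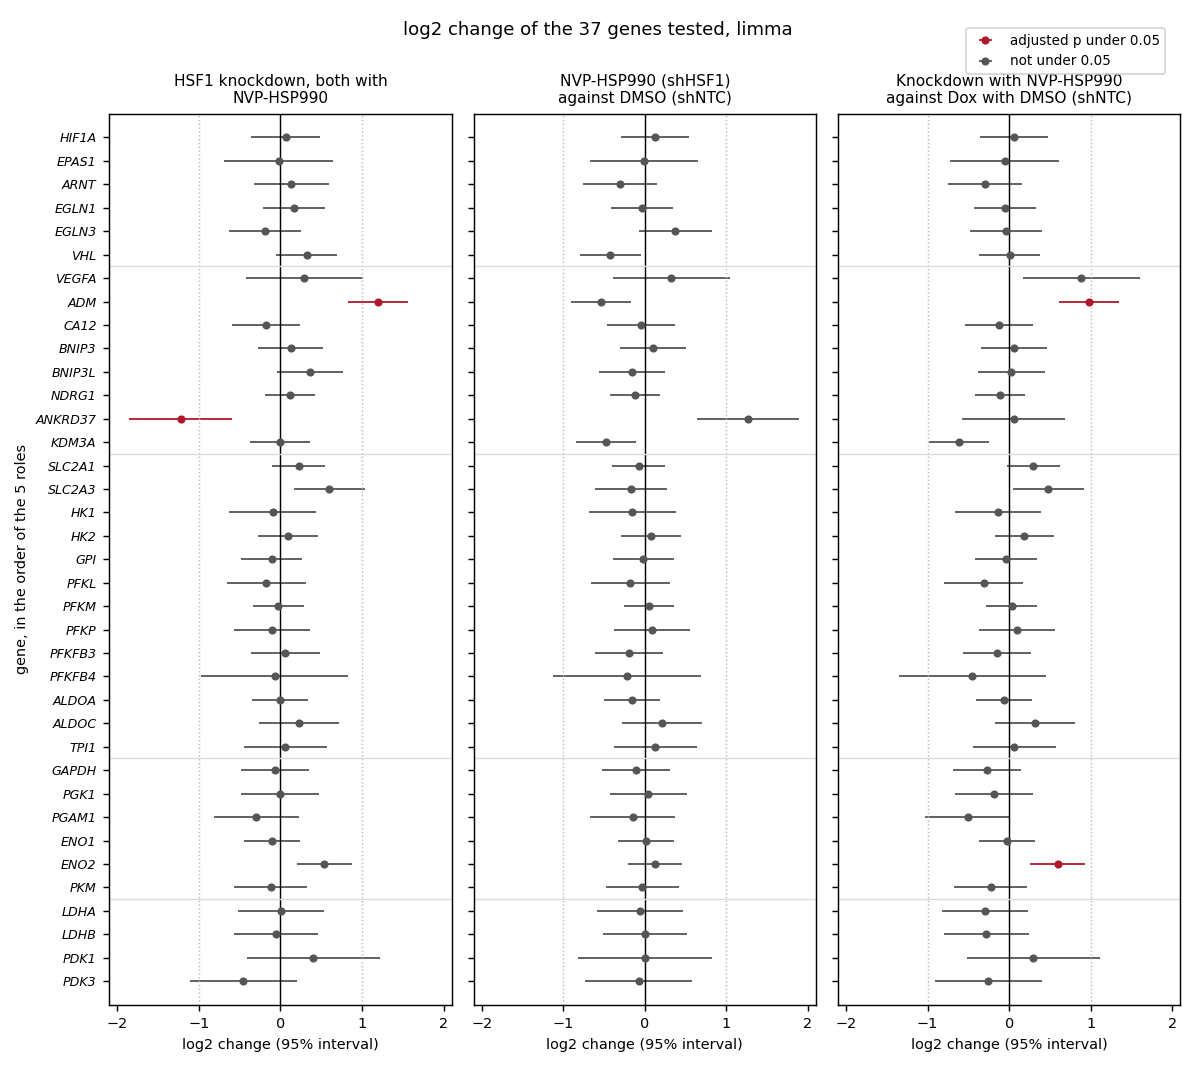
log2 change (x axis) with its 95% interval from limma for the 37 genes tested, grouped by role from HIF subunits at the top to lactate and pyruvate fate at the bottom, in 3 comparisons. Dotted lines mark a 2-fold change, and red marks an adjusted p under 0.05. ADM and ENO2 stand to the right and ANKRD37 to the left of the other genes where red, and most intervals lie between the dotted lines.

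The HIF subunits and the oxygen sensors gave no call in any comparison. HIF1A, the oxygen-regulated alpha subunit, had signals of 3186 and 3420 in knockdown cells, 2983 and 3344 in inhibitor-only cells, 2836 and 3529 in Dox control cells, and 2569 and 3256 in DMSO control cells. The second array was the higher in each group, and the groups overlapped. Its log2 change was 0.06 with the knockdown (95% interval -0.36 to 0.48) and 0.13 with NVP-HSP990 (-0.29 to 0.55). EPAS1, the second alpha subunit, and ARNT, the common beta subunit, had log2 changes of -0.02 and 0.14 with the knockdown. EGLN1, the main prolyl hydroxylase, had 0.16 on the probe set that stood for it and 0.63 and 0.25 on its other tested probe sets, and none of these passed the test.

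EGLN3 and VHL were near the median of their arrays and so close to the lower end of the measurable range. EGLN3, a prolyl hydroxylase that HIF itself induces, had signals of 12.6 and 6.2 in knockdown cells, 8.8 and 17.2 in inhibitor-only cells, 11.2 and 8.6 in Dox control cells, and 7.1 and 5.2 in DMSO control cells, below the array median in 6 of 8 arrays. VHL, which recognises hydroxylated HIF alpha, had 14.8 and 19.5, 11.1 and 9.9, 17.5 and 16.3, and 20.7 and 18.4 in the same 4 groups. Its signals in inhibitor-only cells were the lowest of the 8, with a log2 change of -0.42 against DMSO control cells (SE 0.17, adjusted p = 0.905 from limma).

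ADM was the clearest change among the hypoxia-induced genes. It encodes adrenomedullin, a secreted vasodilator peptide and a classical HIF target. Its signals were 1018 and 873 in knockdown cells, 439.5 and 369 in inhibitor-only cells, 428 and 516 in Dox control cells, and 579.8 and 603 in DMSO control cells. Both arrays of knockdown cells lay above the other 6. ADM rose 2.29-fold with the knockdown (log2 change 1.20, SE 0.16, adjusted p = 0.00428 from limma) and kept this call in all 19 alternatives, at log2 changes of 1.07 to 1.32 and adjusted p of 0.00367 to 0.0456. With NVP-HSP990 its log2 change ran the other way, at -0.54 (95% interval -0.90 to -0.17, adjusted p = 0.563), and both arrays of inhibitor-only cells lay below both arrays of DMSO control cells.

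ANKRD37, an ankyrin repeat protein and a HIF target, was high in a single group. Its signals were 335 and 200.3 in knockdown cells, 808 and 486 in inhibitor-only cells, 278 and 224 in Dox control cells, and 287 and 220.3 in DMSO control cells. Both arrays of inhibitor-only cells lay above the other 6, among which the groups overlapped. With the knockdown ANKRD37 fell by 1.22 on the log2 scale (SE 0.28, adjusted p = 0.0497 from limma), at the threshold. Against DMSO control cells its log2 change with NVP-HSP990 was 1.27 (95% interval 0.64 to 1.89, adjusted p = 0.223 and unadjusted p = 0.00112 from limma), the largest of the 37. These 2 comparisons share the arrays of inhibitor-only cells. The call with the knockdown was lost in 13 of 19 alternatives, among them each fit that left out the second array of knockdown cells (log2 change -0.88, adjusted p = 0.268), the first array of inhibitor-only cells (-0.87, adjusted p = 0.257) or any 1 of the 4 shNTC arrays (-1.22 each, adjusted p of 0.0689 to 0.0753). With the mean of its 2 probe sets the change was -0.61 (adjusted p = 0.11 from limma). The other probe set had signals of only 0.3 to 1.8 and did not pass the filter, so this value is no second measure of the change.

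The other hypoxia-induced genes gave no call with the knockdown. VEGFA, the angiogenic growth factor, had signals of 976 and 828 in knockdown cells, 822 and 649 in inhibitor-only cells, 712 and 322 in Dox control cells, and 727 and 461 in DMSO control cells. The knockdown cells had the 2 highest signals, by a narrow margin over inhibitor-only cells (828 against 822), and the other groups overlapped. KDM3A, a histone H3 lysine demethylase, had 273 and 229, 264 and 237, 402 and 383, and 377 and 335 in the same 4 groups. All 4 arrays with the inhibitor, which are also those of the shHSF1 line, lay below all 4 with DMSO. The log2 changes of KDM3A were -0.48 for NVP-HSP990 against DMSO (adjusted p = 0.724 from limma) and -0.0011 for the knockdown (95% interval -0.37 to 0.37). BNIP3, BNIP3L and NDRG1 had log2 changes of 0.12, 0.36 and 0.12 with the knockdown. BNIP3 and BNIP3L encode mitophagy receptors. BNIP3L had signals of 1071 and 863, 847 and 656, 1018 and 875, and 909 and 765 in the 4 groups in the same order, and its 2 probe sets disagreed, with log2 changes of 0.36 and -0.33. CA12, a carbonic anhydrase, was below the array median in 6 of 8 arrays and had a log2 change of -0.18.

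**Figure D2:**
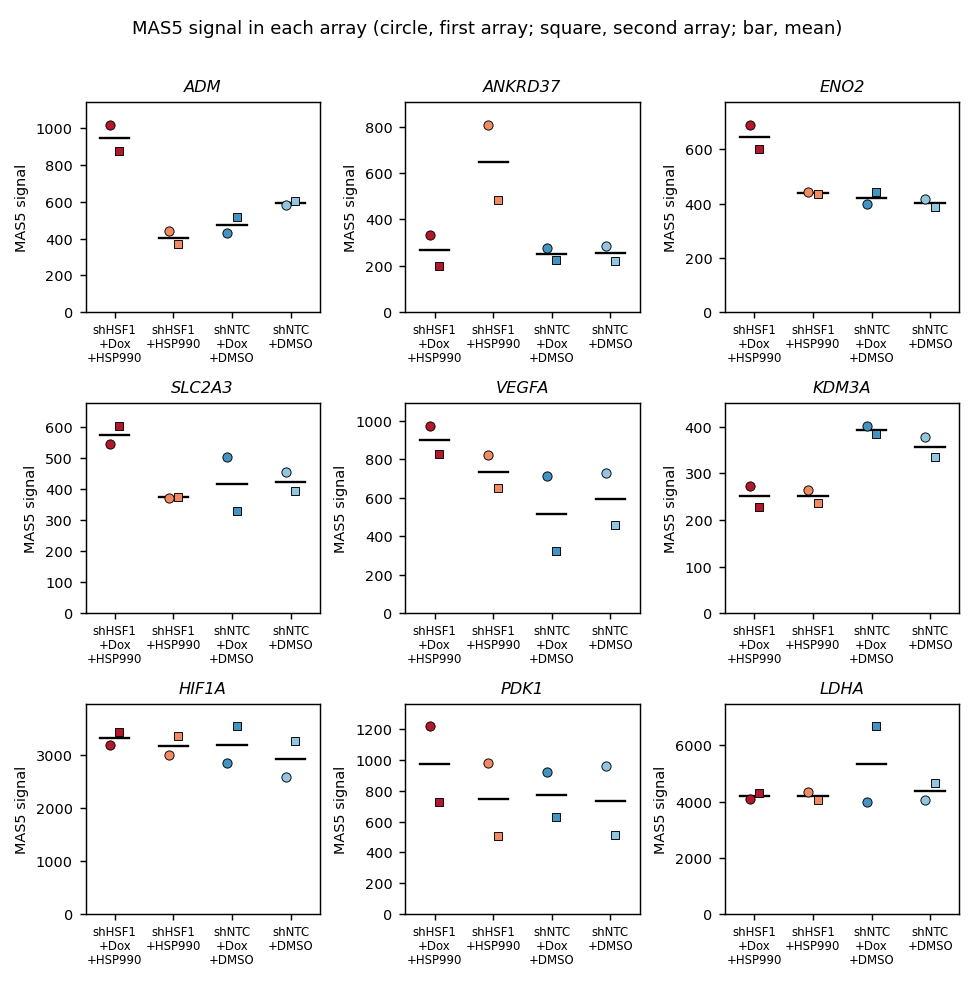
MAS5 signal (y axis, linear, from 0) in each of the 8 arrays for 9 genes, with circles for the first and squares for the second array of each group and a bar at their mean. ADM is highest with the knockdown (1018 and 873), ANKRD37 is highest in inhibitor-only cells (808 and 486), and LDHA is highest in the second array of Dox control cells (6671).

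Glucose uptake and upper glycolysis gave no call, with a median log2 change of -0.0024 with the knockdown over its 13 genes and a range of -0.17 to 0.60. The upper end was SLC2A3, the high-affinity glucose transporter GLUT3. Its signals were 548 and 606 in knockdown cells, 374 and 376 in inhibitor-only cells, 505 and 330.0 in Dox control cells, and 455 and 393 in DMSO control cells. Both arrays of knockdown cells lay above the other 6. The log2 change was 0.60 (95% interval 0.16 to 1.04, adjusted p = 0.161 from limma), and the other 2 probe sets of SLC2A3 gave 0.83 and 0.66. Against this, SLC2A1, the common transporter GLUT1, had a log2 change of 0.22 (-0.10 to 0.55).

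Among the enzymes of this stretch, changes with the knockdown were small. HK1 and HK2, the hexokinases that trap glucose in the cell, had log2 changes of -0.10 and 0.10. GPI, ALDOA and ALDOC, which convert and cleave the hexose phosphates, had -0.11, -0.0024 and 0.23, and TPI1, the triose phosphate isomerase, had 0.06. The phosphofructokinases PFKL, PFKM and PFKP, the committed step, had -0.17, -0.03 and -0.11. PFKFB3 and PFKFB4, which make the activator fructose 2,6-bisphosphate, had 0.06 and -0.07, with a wide 95% interval of -0.98 to 0.83 for PFKFB4. With NVP-HSP990 the 13 genes ranged from -0.22 for PFKFB4 to 0.21 for ALDOC.

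In lower glycolysis the change furthest from 0 with the knockdown was that of ENO2, the neuronal enolase isozyme. Its signals were 691 and 601 in knockdown cells, 441 and 436 in inhibitor-only cells, 400.0 and 444 in Dox control cells, and 417 and 387 in DMSO control cells. Both arrays of knockdown cells lay above the other 6. The log2 change with the knockdown was 0.54 (95% interval 0.20 to 0.87, adjusted p = 0.094 from limma). ENO1, the common enolase, had -0.10 (-0.45 to 0.24) on the probe set that stood for it, and 0.09 and 0.19 on its other tested probe sets. The difference between the 2 isozymes was not tested.

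GAPDH, PGK1 and PKM, the enzymes of oxidation, of the first ATP-forming step and of the last one, had log2 changes of -0.07, -0.0066 and -0.12 with the knockdown. PGAM1, phosphoglycerate mutase, had signals of 2239 and 1747 in knockdown cells, 2580.4 and 2304 in inhibitor-only cells, 2184 and 3645 in Dox control cells, and 2648 and 2766 in DMSO control cells. The arrays of knockdown cells were lower than all 4 arrays without Doxycycline, but the log2 change of -0.30 (-0.82 to 0.22) did not pass. A second probe set of PKM, named after its values were seen, had signals of 118 and 138, 52.3 and 96.2, 145 and 139, and 159 and 159 in the 4 groups in the same order. Both arrays of inhibitor-only cells lay below the other 6, but the change with NVP-HSP990 did not pass (adjusted p = 0.405 over all probe sets from limma), and the probe set that stood for PKM had a log2 change of -0.03.

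Lactate and pyruvate fate gave no call. LDHA and LDHB, the lactate dehydrogenase subunits, had log2 changes of 0.0060 and -0.05 with the knockdown and of -0.06 and 0.0034 with NVP-HSP990. The pyruvate dehydrogenase kinases PDK1 and PDK3, which hold back the entry of pyruvate into the citric acid cycle, had 0.40 (-0.42 to 1.23) and -0.46 (-1.11 to 0.20) with the knockdown. PDK3 had signals of 323 and 179 in knockdown cells, 453 and 249 in inhibitor-only cells, 310.4 and 273 in Dox control cells, and 368 and 343 in DMSO control cells. In both shHSF1 groups the 2 arrays differed by more than the groups did, and the first array was the higher in all 4 groups. The 5 tested probe sets of PDK3 had log2 changes of -0.58 to -0.10 with the knockdown, none of them called. PDK1 had 1217 and 725, 982 and 507, 920 and 630.2, and 959 and 514 in the 4 groups in the same order, with the first array the higher in each. Of the 37 genes, 10 had the first array higher in all 4 groups (27.0%) and 5 had it lower (13.5%), against 16.7% and 12.6% of all genes tested.

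The probe sets of a gene were also tested singly. The 37 genes had 93 single-symbol probe sets, of which 73 passed the filter, and with the knockdown only that of ADM was called, where 1.88% of all 24631 probe sets tested were called. Of the 18 genes with more than 1 tested probe set, BNIP3L was the one with opposite signs of over 0.3 on each side, and PKM had the widest range, -0.12 to 0.72. SLC2A1, LDHB and ALDOA differed by less than 0.1 between theirs.

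**Figure D3:**
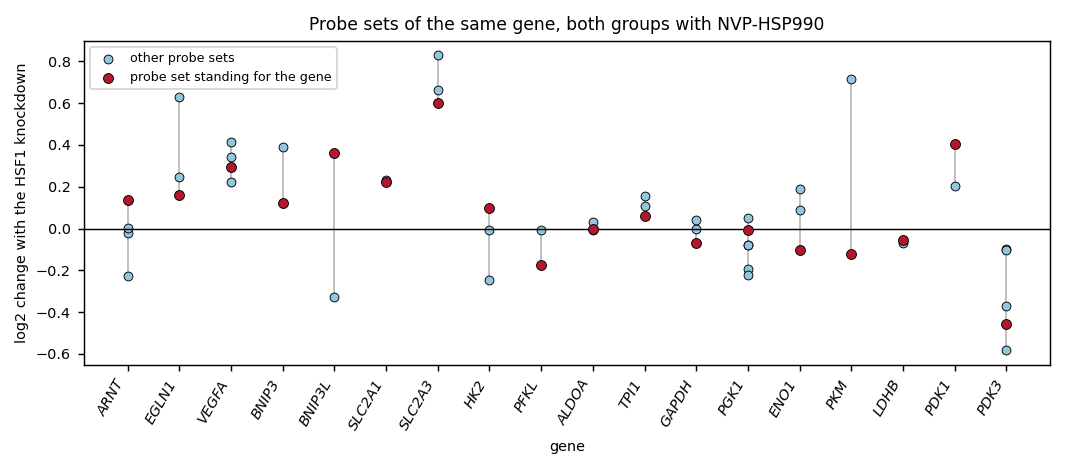
log2 change with the knockdown, both groups with NVP-HSP990 (y axis), for each tested probe set of the 18 genes with more than 1. Red points stand for the gene in the tests, blue points are its other probe sets, and grey lines join them. The 3 probe sets of SLC2A3 lie between 0.60 and 0.83, those of BNIP3L lie on both sides of 0, and 1 of PKM lies apart at 0.72.

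With NVP-HSP990 against DMSO none of the 37 genes was called, where 0.197% of all genes tested rose and 0.0237% fell. At an unadjusted p under 0.05 there were 4 of the 37, ANKRD37 higher and ADM, KDM3A and VHL lower, or 10.8%, against 4.96% of all genes. The median log2 change was -0.04 over the 37 and 0.0096 over all genes. For 34 of them the 95% interval lay inside a 2-fold change in either direction, the exceptions being ANKRD37, PFKFB4 and VEGFA.

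When knockdown cells were set against Dox control cells, ADM and ENO2 rose and no member fell, where 2.84% of all genes tested rose and 2.99% fell. ADM rose 1.97-fold (log2 change 0.98, SE 0.16, adjusted p = 0.00757 from limma), a call kept in all 19 alternatives. ENO2 rose 1.51-fold (0.60, SE 0.15, adjusted p = 0.0465), a call lost in 15 of 19 alternatives, in each fit that left out 1 of the 8 arrays among them (log2 changes of 0.50 to 0.69, adjusted p up to 0.203). VEGFA had a log2 change of 0.88 (0.17 to 1.60, adjusted p = 0.158), and its 3 other probe sets gave 0.66, 0.68 and 0.03. KDM3A had -0.62 (-0.99 to -0.25, adjusted p = 0.0573). ANKRD37, at 0.05 (-0.57 to 0.68), was near the level of Dox control cells. Tested singly, the probe set of ADM was the only one of the 73 called, against 3.98% of all probe sets.

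This comparison rested on the array with the high 3-prime to 5-prime ratio. In that array, the second of Dox control cells, LDHA had a signal of 6671, against 3992 in the first array of the group. LDHB had 6873 against 4167, PGAM1 had 3645 against 2184, and PGK1 had 4599.5 against 2966. Without the first array, which left that array as the only control, 5 genes were called. ADM and VEGFA (log2 change 1.44, adjusted p = 0.0274) were higher and LDHA (-0.66, adjusted p = 0.0335), LDHB (-0.64, adjusted p = 0.033) and PGAM1 (-0.88, adjusted p = 0.0304) were lower. Without the second array only ADM was called, and LDHA, LDHB and PGAM1 had log2 changes of 0.07, 0.08 and -0.14. The part of RNA quality in these values was not tested.

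Doxycycline alone (Dox control cells against DMSO control cells) called none of the 37 genes and none of all genes (0% in either direction), and none of the 37 had an unadjusted p under 0.05, against 2.42% of all genes. The log2 changes ran from -0.32 for ADM to 0.25 for LDHA. The interaction (the change with Doxycycline in the inhibitor-treated shHSF1 line minus the change with Doxycycline in the shNTC line) called ADM (1.52, SE 0.23, adjusted p = 0.0177 from limma) and no other of the 37, where 0.308% of all genes were called higher and 0.481% lower. The call was lost without the first array of knockdown cells (1.41, adjusted p = 0.0502) and without any 1 of the 4 shNTC arrays (1.39 to 1.65, adjusted p of 0.0516 to 0.115). ANKRD37 had -1.21 (SE 0.40, adjusted p = 0.271).

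Beside the 37 genes, wider lists of the same pathways moved in a few of their genes. With the knockdown, 1 of 21 other glycolytic isozymes tested was called, none of 13 genes of pyruvate dehydrogenase and its entry, 5 of 53 other hypoxia-induced genes and HIF regulators, and 2 of 13 genes of glucose sensing and the pentose phosphate path, where 0.994% of all genes tested rose and 1.85% fell. Their median log2 changes were -0.10, -0.03, -0.03 and 0.04, beside 0.0015 over all genes. The lists were chosen with earlier results of these data known, so their counts are not an independent check. With NVP-HSP990 against DMSO none of these lists held a call, where only 0.197% of all genes tested rose and 0.0237% fell. None of 8 housekeeping genes tested was called in any comparison, where at most 2.84% of all genes tested rose and 2.99% fell in a comparison.

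HIF1AN, the asparaginyl hydroxylase FIH that blocks the transactivation domain of HIF alpha, fell on every probe set. Its signals were 189 and 221 in knockdown cells, 574 and 713 in inhibitor-only cells, 681 and 872 in Dox control cells, and 554 and 778 in DMSO control cells. Both arrays of knockdown cells lay below the other 6. HIF1AN fell by 1.57 on the log2 scale with the knockdown (SE 0.21, adjusted p = 0.00325 from limma) and by 1.83 against Dox control cells (adjusted p = 0.00107), both kept in all 19 alternatives, and its 3 probe sets had changes of -1.46, -0.96 and -1.57 with the knockdown. With NVP-HSP990 its log2 change was -0.04 (SE 0.21).

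AK4, a mitochondrial adenylate kinase induced by hypoxia, had signals of 348 and 244, 1145 and 717, 1212 and 1182, and 1184 and 1047 in the 4 groups in the same order. It fell by 1.59 on the log2 scale with the knockdown (adjusted p = 0.00524 from limma), although 1 of its 4 probe sets had 0.38 and the mean of the 4 was -0.71 (adjusted p = 0.0738). P4HA2, a collagen prolyl hydroxylase subunit, had 213 and 137, 512 and 537, 369 and 203, and 299.5 and 226 in those groups. It was highest in inhibitor-only cells, as was ANKRD37, and fell by 1.53 on the log2 scale with the knockdown (adjusted p = 0.0177), a call lost without the second array of knockdown cells or either array of inhibitor-only cells (adjusted p up to 0.114), and with the mean of its probe sets (-0.76, adjusted p = 0.0733).

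The genes of these lists that rose with the knockdown were ARRDC4, TMEM45A, CITED2, PKLR and MYC. ARRDC4, an arrestin-domain protein that restrains glucose uptake, had signals of 202 and 177 in knockdown cells, 62.1 and 67.9 in inhibitor-only cells, 50.4 and 25.1 in Dox control cells, and 40.8 and 34.9 in DMSO control cells. It rose 2.53-fold with the knockdown (log2 change 1.34, adjusted p = 0.0173 from limma) and 3.93-fold against Dox control cells (1.97, adjusted p = 0.00156). Its close relative TXNIP, which lowers glucose uptake and binds thioredoxin, had 1630.3 and 1440.2, 953 and 708, 744 and 469, and 583 and 464 in the same groups. TXNIP had a log2 change of 0.89 with the knockdown (adjusted p = 0.0735) and rose by 1.35 against Dox control cells (adjusted p = 0.00814), a call lost without the second array of those shNTC cells (adjusted p = 0.0541). The call of ARRDC4 with the knockdown was lost without any 1 of the 4 shHSF1 arrays (adjusted p up to 0.0947).

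CITED2, which competes with HIF alpha for its coactivators, had signals of 1175 and 1055 in knockdown cells, 559 and 498 in inhibitor-only cells, 581 and 344 in Dox control cells, and 609.7 and 496 in DMSO control cells. Both arrays of knockdown cells lay above the other 6, and CITED2 rose by 1.06 on the log2 scale (adjusted p = 0.0358 from limma), lost without any 1 of the 4 shHSF1 arrays or either array of DMSO control cells (log2 changes of 0.98 to 1.14), and with the mean of its probe sets (0.71, adjusted p = 0.134). TMEM45A, a transmembrane protein, rose by 1.33 (adjusted p = 0.00898), lost without the second array of knockdown cells (adjusted p = 0.0651). MYC, a transcription factor that drives glycolytic genes, had signals of 145 and 156, 82.2 and 72.6, 49.6 and 42.7, and 48.4 and 41.9 in the 4 groups in the same order. It rose by 0.84 (adjusted p = 0.049), lost in all 8 fits that left out 1 array. PKLR, the liver and red cell pyruvate kinase, rose by 0.98 (adjusted p = 0.039), lost without any 1 of those 6 shHSF1 and DMSO control arrays (0.78 to 1.19) and with the mean of its probe sets (0.31, adjusted p = 0.338).

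Against Dox control cells, 4 of the 53 other hypoxia genes rose and 3 fell, where 2.84% of all genes tested rose and 2.99% fell. This list too was chosen with earlier results known. STC2, a secreted glycoprotein, had signals of 929 and 667 in knockdown cells, 659 and 559.7 in inhibitor-only cells, 227 and 307 in Dox control cells, and 300.0 and 335 in DMSO control cells. All 4 arrays with the inhibitor, which are also those of the shHSF1 line, lay above all 4 with DMSO. STC2 rose by 1.52 (adjusted p = 0.00235 from limma). With the knockdown its log2 change was 0.37 and not called, while its other probe set had 0.96 (adjusted p = 0.0362 over all probe sets from limma). MAFF, a small MAF transcription factor, rose by 1.41, CITED2 by 1.29 and TMEM45A by 1.21, while AK4 fell by 1.98, HIF1AN by 1.83 and PNRC1, a nuclear receptor coactivator, by 0.93. MAFF was lowest in Dox control cells (327 and 308), and its log2 change was 0.16 with the knockdown and -0.99 with Doxycycline alone, neither called. In the other lists, ARRDC4, TXNIP and MYC rose among 13 glucose sensing and pentose phosphate genes, and PCK2, mitochondrial phosphoenolpyruvate carboxykinase, rose by 1.06 among 13 genes of pyruvate entry. PCK2 had signals of 543 and 363 in knockdown cells, 541 and 434 in inhibitor-only cells, 213 and 198 in Dox control cells, and 223 and 226 in DMSO control cells. Its log2 change was -0.12 with the knockdown and 1.06 with NVP-HSP990, neither called. The call of CITED2 was lost with the mean of its probe sets (0.87, adjusted p = 0.0528). That of TMEM45A was lost without the second array of knockdown cells (log2 change 0.92) or of Dox control cells (1.11), that of PNRC1 without either array of knockdown cells (-0.88 and -0.98) or the second of Dox control cells (-0.87), and that of PCK2 without the first array of knockdown cells (0.78) or either of Dox control cells (1.10 and 1.01).

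**Figure D4:**
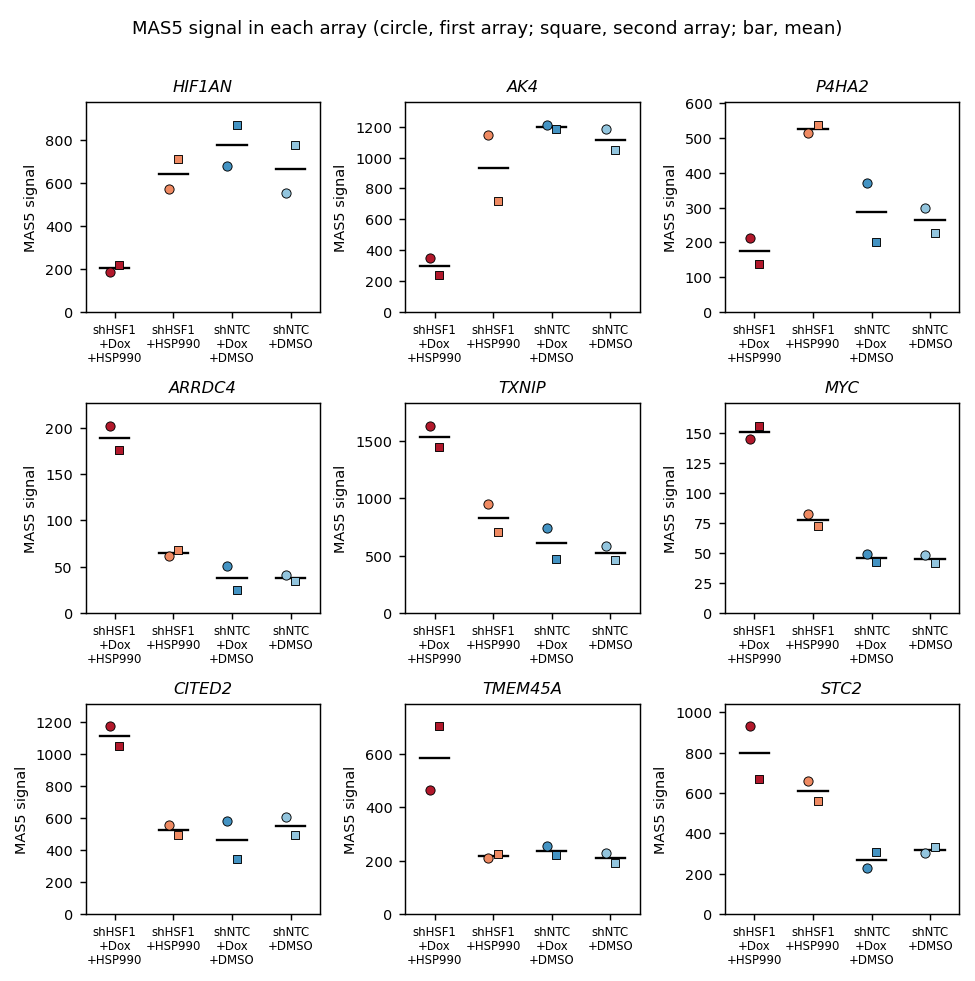
MAS5 signal (y axis, linear, from 0) in each array for 9 genes of the wider lists, with circles for the first and squares for the second array of each group and a bar at their mean. HIF1AN (189 and 221) and AK4 (348 and 244) are lowest with the knockdown, ARRDC4 (202 and 177), TXNIP, MYC, CITED2 and TMEM45A are highest with it, and STC2 is higher in both groups with the inhibitor.

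Among markers of other cell types, LUM was called in both comparisons with knockdown cells and SERPINA1 in that against Dox control cells. LUM, among 6 fibroblast markers, had signals of 756 and 708 in knockdown cells, 451 and 429.7 in inhibitor-only cells, 460.3 and 374 in Dox control cells, and 421 and 431 in DMSO control cells, and rose by 0.71 (log2) with the knockdown (adjusted p = 0.0385 from limma) and by 0.80 against Dox control cells (adjusted p = 0.0153). COL1A1, PDGFRB and LUM, of the same list, were at or above the array median in every array, while COL1A2 was below it in every array. The summed signal of the 6 was 898 to 942 with the knockdown, 647 to 662 in inhibitor-only cells, 511 to 628 in Dox control cells, and 613 to 638 in DMSO control cells. LUM made up most of that sum. Of the 5 markers tested, 3 had a negative change with the knockdown, and the median was -0.15. SERPINA1, among 6 hepatocyte markers, had signals of 26.3 and 9.0 in knockdown cells, 85.5 and 51.2 in inhibitor-only cells, 65.7 and 63.2 in Dox control cells, and 81.1 and 45.6 in DMSO control cells. It fell by 1.31 (log2) against Dox control cells (adjusted p = 0.0381 from limma), while its log2 change with the knockdown was -1.35 (adjusted p = 0.0509). ALB, APOB and TTR, of the same list, were below the array median in every array, and the summed signal of the 6 was 43.7 to 57.4 in knockdown cells, 96.4 or more in inhibitor-only cells, 93.9 to 99.0 in Dox control cells, and 66.0 to 101.5 in DMSO control cells. Of 6 epithelial markers, KRT8 and KRT18 were at or above the array median in every array, and CDH1 and KRT19 were below it in every array. The part of all these markers in the changes above was not tested.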

How the data were processed

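Groups and array numbers were taken from the sample titles. The submitters' processing notes name MAS5, with no version. What the authors deposited is 1 MAS5 signal intensity per probe set and array, linear and scaled to a trimmed mean of 150 in each array, and no further normalization was applied. The array annotation used gave 41091 of 54675 probe sets a single gene symbol, 1801 several and 11721 none, and 62 were controls. Only single-symbol probe sets were used. The one with the highest mean log2 signal stood for its gene. Genes at or above the median of an array in 2 or more of the 8 arrays were tested (12672 genes). The signal plus 16 was taken to log2, so fold changes of dim genes are understated. For arrays, their number limits the precision.

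Two-sided tests were run in limma 3.58.1 (R 4.3.3) on 4 group means over 8 arrays, with variances that follow a trend on intensity (4 residual and 6.36 prior degrees of freedom) and Benjamini-Hochberg adjustment over all genes tested, called at an adjusted p under 0.05. The steps were checked on simulated data. The methods name no test for the arrays. Members and lists were chosen with earlier results of these data known. Values per array are given for HSF1, HIF1A, members called in any comparison, the 3 members with the largest change in either direction with the knockdown and with NVP-HSP990, EGLN3, ANKRD37, members whose probe sets disagree, and the called genes of the wider lists. PDK1, STC2, TXNIP, LUM, SERPINA1 and the second PKM probe set were given per array after their values were seen. Alternatives were 1 or 64 added before the log, no filter or one in all 8 arrays, quantile normalization, median centring, the mean of a gene's probe sets, all probe sets singly, no variance trend, a replicate block, fits to the comparison's own arrays, and leaving out each array. The mean of a gene's probe sets took in those that had not passed the filter. No value column was left unmapped (0). Promoters came from RefSeq (GRCh38.p14). Python 3.11.15 with pandas 2.3.3 and matplotlib 3.10.9 made the tables and plots.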

Additional observations from a re-analysis of the deposited data

Results flagged for a closer look

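In 4 genes of the members and wider lists, of 100 called among 12672 tested (0.308% higher and 0.481% lower), the change with Doxycycline in the inhibitor-treated shHSF1 line differed from the change with Doxycycline in the shNTC line, by the interaction test of limma. ADM had a difference of 1.52 on the log2 scale (SE 0.23, adjusted p = 0.0177), from 1.20 in the shHSF1 line and -0.32 in the shNTC line. HIF1AN had -1.80 (SE 0.29, adjusted p = 0.0215), from -1.57 and 0.23, and AK4 had -1.69 (SE 0.32, adjusted p = 0.0461), from -1.59 and 0.10. MAFF had 1.15 (SE 0.20, adjusted p = 0.0304), from 0.16 in the shHSF1 line and -0.99 in the shNTC line. Its signals were 885 and 849 in knockdown cells, 766 and 782 in inhibitor-only cells, 327 and 308 in Dox control cells, and 605 and 689 in DMSO control cells, so that its difference came mainly from the shNTC line. When 1 array was left out, the call was lost in 5 of 8 fits for ADM, 6 of 8 for HIF1AN, 6 of 8 for AK4 and 8 of 8 for MAFF. The 2 lines also differ in inhibitor, so hairpin and inhibitor cannot be told apart here. Groups of 2 arrays are too small to test for a single array that stands apart.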

How the results depend on the processing

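With the knockdown, the 2 genes called (ADM and ANKRD37) became 1, ADM, with 1 added before the log, no filter, the filter in all 8 arrays, the mean of all probe sets, no variance trend, only the arrays of the comparison, and all probe sets singly. Leaving out 1 array gave 1 to 2. In knockdown cells against Dox control cells, the 2 genes (ADM and ENO2) became 1, ADM, with 1 added before the log, no filter, quantile normalization, median centring, no variance trend, only the arrays of the comparison, and all probe sets singly, and leaving out 1 array gave 1 to 5. With NVP-HSP990 and with Doxycycline alone, leaving out 1 array gave 0 each, and for the interaction 0 to 1. Over all genes, the calls with the knockdown (360) were 221 without the filter, 95 in only the arrays of the comparison and 123 to 380 with 1 array left out. Those against Dox control cells (739) were 450 without the filter and 263 to 802 with 1 array left out. Those with NVP-HSP990 (28) were 16 without the filter and 5 to 30 with 1 array left out, and those of the interaction (100) were 59 and 7 to 76.

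The labels do not say what arrays of the same number share beyond it. Their deviations from the group means correlated at 0.685 in the groups of the knockdown, at 0.276 in those of the NVP-HSP990 comparison, at 0.464 in those of Doxycycline alone, and at 0.0156 to 0.198 in the other 3 pairs of groups. With the replicate block, the genes called among the 37 were 3 with the knockdown (ADM, ANKRD37 and ENO2, that of ENO2 at adjusted p = 0.0489), 1 with NVP-HSP990 (ANKRD37, adjusted p = 0.0137), 4 against Dox control cells (ADM, ENO2, KDM3A and VEGFA), 0 with Doxycycline and 2 for the interaction (ADM and ANKRD37). The calls over all genes were then 752, 44, 1237, 0 and 279.

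Of 773 values of 41 single-gene results under an alternative, 639 kept their direction and their side of the threshold, 121 lost the call, 9 gained one and 4 changed sign. None of the 4 was called in the fit to all arrays. Without 1 array, HIF1A had log2 changes of -0.018 (without the first array of inhibitor-only cells) to 0.15 with the knockdown, and of -0.044 (without the first array of DMSO control cells) to 0.30 with NVP-HSP990. Against Dox control cells, LDHA had -0.66 and LDHB -0.64 without the first Dox control array, and 0.074 and 0.079 without the second. The cause of these shifts was not tested. The call of HSF1 with the knockdown was lost in only the arrays of the comparison (adjusted p = 0.0652). With 2 arrays a group, the median half-width of a 95% interval was 0.44 on the log2 scale for the 37 genes. The interval is not adjusted for the number of genes tested, so for a gene with that half-width a call needed a larger change. SLC2A3, at 0.60 with the knockdown, was not called.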
